A study of Homo sapiens with 2 samples.

Results

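Serum amyloid A genes, the lipocalin gene LCN2 and a group of complement genes were examined in 2 cultures of the established human glioblastoma line U87. For 72 h the cells received either the curcumin analog CCA-1.1 or DMSO, the solvent, which is called vehicle here. The 9 genes, of 41582 gene symbols measured, were SAA1, SAA2, SAA4, LCN2, C3, C1R, C1S, CFB and SERPING1. They were chosen by their function as acute-phase or complement genes and from earlier values of these same libraries, in which SAA1 was known to be lower after CCA-1.1, so the differences given for them are descriptions and no test was made. Both cultures were wild type by their labels and were grown in RPMI with fetal bovine serum. There was 1 library per condition, the line is a single cell source, and the concentration of CCA-1.1 used for sequencing is not given in the sources used here. The spread between cultures is therefore unknown, and no p-value is given. Values are in TPM (transcript abundance corrected for transcript length and scaled to a fixed total in every library). Since TPM carries no read depth, counting error could not be given.

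The acute-phase response is a program in which inflammatory cytokines such as interleukin 1 and interleukin 6 raise the production of a set of secreted proteins, mainly in the liver but also in other cells. SAA1 and SAA2 are its inducible serum amyloid A genes, whose products bind high-density lipoprotein and attract leukocytes, and SAA4 is the constitutive form. LCN2 binds bacterial siderophores and so withholds iron. Complement is a cascade of plasma proteins: C1R and C1S are the serine proteases of the first component, C3 is the central protein on which all routes converge, CFB supplies the protease of the alternative pathway, and SERPING1 (C1 inhibitor) blocks C1R and C1S. Astrocytes and glioma cells can make several of these proteins themselves.

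SAA1 and SAA2 are near-identical copies, and their coding sequences are shown first because the similarity bears on how reads were divided between them. Both are 369 bases long in the MANE Select transcripts of GENCODE, and 11 positions differ, an identity of 97.0%. The first 300 bases of each are printed 5′ to 3′, with capitals at the 9 positions in that stretch where the copies differ.
SAA1: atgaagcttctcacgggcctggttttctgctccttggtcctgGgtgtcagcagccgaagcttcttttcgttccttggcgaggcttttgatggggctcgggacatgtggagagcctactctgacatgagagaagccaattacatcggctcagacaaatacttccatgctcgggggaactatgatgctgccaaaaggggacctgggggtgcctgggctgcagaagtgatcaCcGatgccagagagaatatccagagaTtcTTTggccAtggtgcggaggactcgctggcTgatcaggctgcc
SAA2: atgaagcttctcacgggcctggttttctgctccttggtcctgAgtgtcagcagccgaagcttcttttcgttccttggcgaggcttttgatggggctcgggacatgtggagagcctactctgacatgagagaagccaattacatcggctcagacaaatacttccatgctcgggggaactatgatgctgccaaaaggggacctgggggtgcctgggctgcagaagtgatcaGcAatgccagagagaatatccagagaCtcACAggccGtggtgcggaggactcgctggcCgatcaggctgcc
The longest stretch without a difference is 186 bases. Of all 31-base words in the SAA1 transcript, 51.0% were also found in a transcript of SAA2, so the division of reads between the copies, and with it the level of each alone, is uncertain. SAA4 is more distant, with 69.2% identity to either copy over the aligned coding sequence, but 74.8% of its 31-base words were shared with SAA2-SAA4, a readthrough gene that joins SAA2 and SAA4. C3, C1S, LCN2 and SERPING1 shared 0 of their words with another GENCODE gene.

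The inducible serum amyloid genes were lower in the CCA-1.1 library by about the same factor. SAA1 (chromosome 11 of GRCh38.p14, 18266264 to 18269967) was at 443.2 TPM with vehicle and at 205.5 TPM with the analog. SAA2 (chromosome 11, 18238236 to 18248668) was at 103.8 TPM with vehicle and 48.7 TPM with the analog. Both genes were thus abundant in the DMSO library and stood at 46.4% and 46.9% of that level in the CCA-1.1 library. After 1 TPM was added to every value, the log2 ratio of CCA-1.1 to vehicle was -1.105 for SAA1 and -1.08 for SAA2. Every difference given without a unit is on this scale, which makes changes of low genes look smaller than they are, and a size past 1 is called 2-fold. In these bulk libraries, fewer cells expressing a gene and less RNA per cell cannot be told apart.

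Among all 41582 genes, 0.714% were lower and 0.815% were higher by more than 2-fold in the CCA-1.1 library. Of the 9 genes, 2 were lower by that measure (SAA1 and SAA2) and 0 were higher, and since the choice of the genes used these libraries, nothing is read from this count. Among the 7906 protein-coding genes averaging 10 TPM or more, where such differences were rarer, 0.152% were lower and 0.0632% were higher. Among the 1499 averaging 100 TPM or more, which includes SAA1, 0.267% were lower and 0% were higher. Of the 7906 genes, 8 had a lower difference than SAA1 and 9 had a lower difference than SAA2. Since SAA1 was known to be lower when it was chosen, nothing is read from these ranks either. The division of reads between SAA1 and SAA2 is uncertain, so their ranks are not separate observations.

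**Figure D1:**
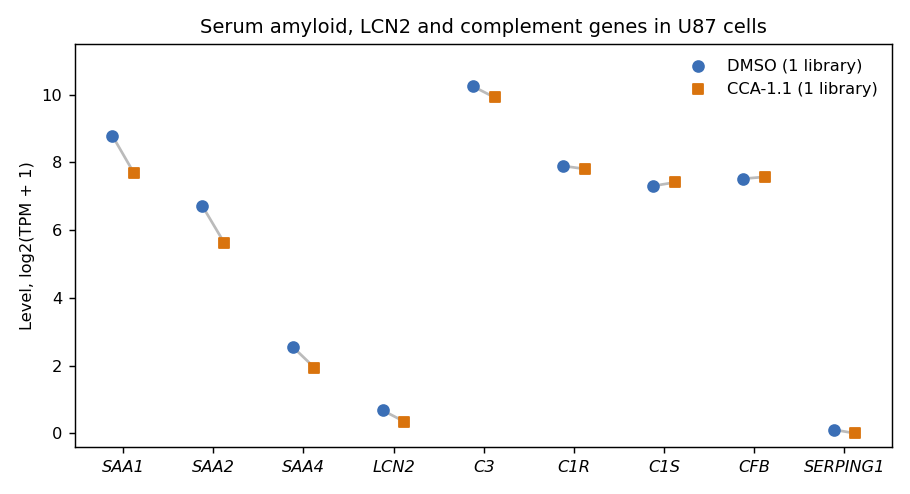
Level of each gene in the DMSO library (circles) and the CCA-1.1 library (squares), as log2(TPM + 1), with 1 library per condition and no error bars. SAA1 and SAA2 drop from 443.2 and 103.8 TPM to 205.5 and 48.7 TPM, while C1R, C1S and CFB stay nearly level and LCN2 and SERPING1 lie near 0.

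**Figure D2:**
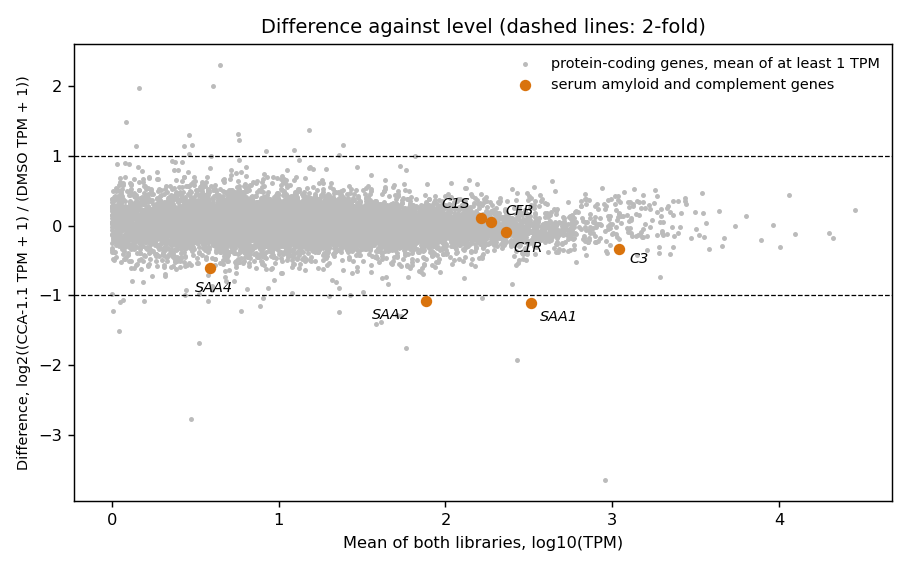
Log2 ratio of CCA-1.1 to vehicle after adding 1 TPM, against the mean TPM on a log10 axis for protein-coding genes averaging 1 TPM or more (grey) and the 7 of the 9 genes above that mean (orange). SAA1 at -1.105 and SAA2 at -1.08 lie beyond the dashed 2-fold line, and C1R, C1S and CFB lie within the bulk of the genes.

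SAA1 and SAA2 were estimated at nearly the same proportion in both libraries, although the division of reads between these copies is uncertain. SAA1 was 4.27 times as high as SAA2 with vehicle and 4.22 times as high with the analog. Their sum was 547.0 TPM with vehicle and 254.2 TPM with the analog, a difference of -1.102. In rank by level among all genes, SAA1 moved from position 297 in the DMSO library to 693 in the CCA-1.1 library, and SAA2 from 1504 to 3197.

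The table lists 3 transcripts of SAA1 and 12 of SAA2, of which 3 and 9 were above 0 in at least 1 library. Transcript NM_199161.5 held 92.5% of SAA1 with vehicle and 91.9% with the analog, at 409.8 TPM and 188.9 TPM. Transcript NM_000331.6 was at 21.4 TPM and 7.85 TPM, and NM_001178006.3 at 11.99 TPM and 8.80 TPM. All 3 SAA1 transcripts were lower with the analog, and the leading one carried nearly all of the difference. In SAA2, NM_030754.5 was at 76.2 TPM with vehicle and 37.3 TPM with the analog, which is 73.5% and 76.5% of the gene. The next SAA2 transcript, NM_001127380.3, was at 18.45 TPM and 7.89 TPM. The shares of the leading transcripts thus differed little between the libraries. The other SAA2 transcripts were each at or below 5.03 TPM, and NM_001385671.1 (0.98 and 1.32 TPM) and NM_001385668.1 (0 and 0.33 TPM) were higher in the CCA-1.1 library.

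**Figure D3:**
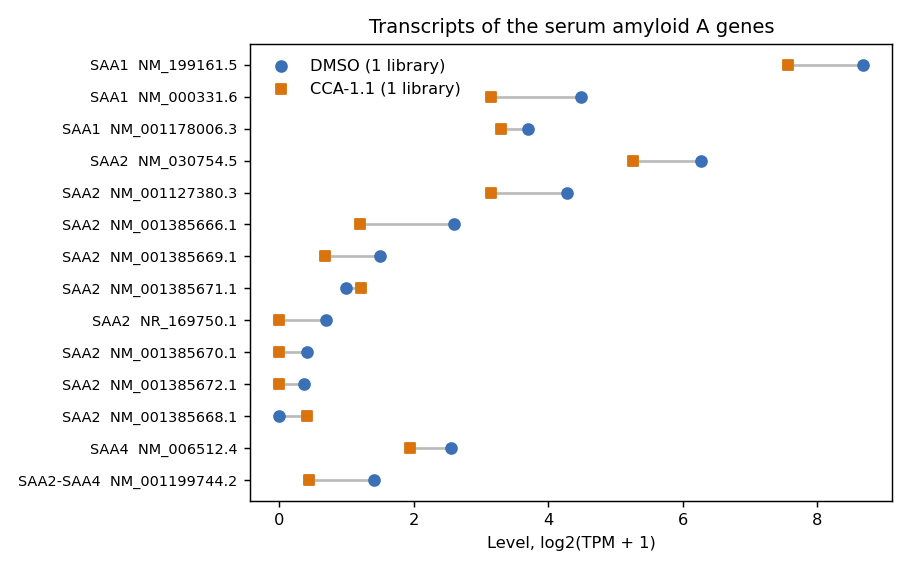
Level of each transcript of the serum amyloid A genes above 0 in at least 1 library, as log2(TPM + 1), in the DMSO library (circles) and the CCA-1.1 library (squares). The leading transcripts, NM_199161.5 of SAA1 and NM_030754.5 of SAA2, are both lower in CCA-1.1, at 188.9 against 409.8 TPM and 37.3 against 76.2 TPM.

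SAA4 (chromosome 11, 18231355 to 18236802) was far lower in level, at 4.89 TPM with vehicle and 2.85 TPM with the analog, a difference of -0.61. It stood at 58.3% of its DMSO level and so moved in the same direction as the inducible genes, but did not pass 2-fold. The readthrough gene SAA2-SAA4 was at 1.66 TPM with vehicle and 0.35 TPM with the analog, a difference of -0.98. Because SAA4 shares most of its sequence with that gene, the values of both are uncertain. The pseudogene SAA3P was listed at 0 in both libraries. Summed over SAA1, SAA2 and SAA4, serum amyloid A was at 551.9 TPM with vehicle and 257.1 TPM with the analog, which is 46.6% of the DMSO level.

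The 2 expressed protein-coding genes found beside the serum amyloid cluster did not share the lower level. Within 100 kb of SAA1, SAA2 and SAA4, and leaving out the readthrough gene, these 2 had a mean of at least 1 TPM. Both lie on the SAA1 side. On the SAA4 side, MRGPRX3 and MRGPRX4 were listed at 0 in both libraries, so no difference can be read there. HPS5, a subunit of a complex of lysosome-related organelle biogenesis, was at 14.8 TPM with vehicle and 16.7 TPM with the analog, a difference of 0.16. GTF2H1, a subunit of the transcription factor TFIIH, was at 31.4 TPM and 34.7 TPM, a difference of 0.14. Around C1R and C1S, the 7 other expressed protein-coding genes had differences between 0.00080 and 0.34, and around CFB the 11 others had differences between -0.29 and 0.49.

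**Figure D4:**
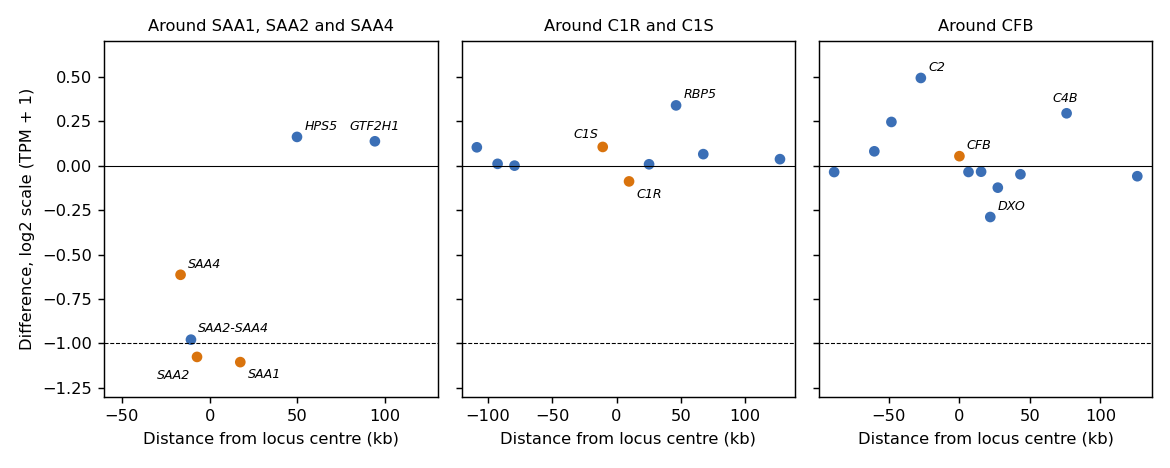
Difference between the libraries, on the log2(TPM + 1) scale, for protein-coding genes averaging 1 TPM or more within 100 kb of 3 loci, by distance in kb between gene and locus centres (orange, genes described in full; blue, their neighbours; dashed line, 2-fold lower). SAA1, SAA2, SAA4 and SAA2-SAA4 lie between -1.105 and -0.61, while their neighbours HPS5 and GTF2H1 lie at 0.16 and 0.14.

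LCN2 (chromosome 9, 128149453 to 128153453) was below 1 TPM in both libraries, at 0.60 TPM with vehicle and 0.27 TPM with the analog, a difference of -0.33. The DMSO value came from NM_005564.5 and the CCA-1.1 value from XM_047423376.1, a predicted transcript, and each was listed at 0 in the other library. At such levels no difference is read from the values. SERPING1 (chromosome 11, 57597685 to 57614848) was at 0.08 TPM in DMSO, divided equally between its 2 transcripts, and was listed at 0 in CCA-1.1. No fold is given, and the difference of -0.11 after adding 1 TPM depends on the amount added. A listed 0 or a value near 0 in this table need not mean that a gene was silent, since ACTN4, an actin crosslinker that cells use in general, was listed at 1.19 TPM with vehicle and at 0 with the analog.

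C3, the central complement protein, was the most abundant of the 9 genes. C3 (chromosome 19, 6677704 to 6720650) was at 1216.5 TPM with vehicle and 967.9 TPM with the analog, all of it in 1 listed transcript, NM_000064.4. It was among the top of all genes by level, at position 94 with vehicle and 130 with the analog. The CCA-1.1 level was 79.6% of the DMSO level, a difference of -0.33. This is short of 2-fold, and 3.47% of the 7906 protein-coding genes had a lower difference. On the TPM scale the difference was -248.6 for C3, close to -237.7 for SAA1.

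The proteases of the first component differed little between the libraries. C1R (chromosome 12, 7080219 to 7092445) was at 237.5 TPM with vehicle and 223.4 TPM with the analog, a difference of -0.09. C1S (chromosome 12, 7060718 to 7071032) was at 157.5 TPM and 169.5 TPM, a difference of 0.11. The ratio of C1R to C1S was 1.51 with vehicle and 1.32 with the analog. C1S was carried by NM_201442.4, at 106.9 TPM with vehicle and 114.4 TPM with the analog, and NM_001734.5, at 50.3 TPM and 53.7 TPM. The first held 67.9% of the gene with vehicle and 67.5% with the analog. C1RL, a protease related to C1R, was at 21.2 TPM and 21.3 TPM.

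CFB (chromosome 6, 31946095 to 31952084) was at 182.8 TPM with vehicle and 189.8 TPM with the analog, a difference of 0.05, from the single listed transcript NM_001710.6. Together C1R, C1S and CFB were at 577.7 TPM with vehicle and 582.7 TPM with the analog, 100.9% of the DMSO level. The ratio of C3 to CFB, 2 proteins that combine in the alternative pathway, was 6.66 with vehicle and 5.10 with the analog, whereas the ratio of C3 to SAA1 was 2.74 and 4.71. By level, the order in the DMSO library was C3, SAA1, C1R, CFB, C1S, SAA2, SAA4, LCN2 and SERPING1, and in the CCA-1.1 library C1R stood above SAA1 and the rest of the order was the same. With 1 library per condition, whether neighbours in this order differ beyond the spread between cultures is not known.

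Promoters are shown for 3 genes: CFB (level and abundant), LCN2 (near 0) and SAA4 (lower in CCA-1.1, at a low and uncertain level). The RefSeq promoter table of GRCh38.p14 held 4 of the 9 genes (CFB, LCN2, SAA4 and C1R). SAA1 and SAA2 were not among them, so the windows do not cover the genes past 2-fold. Each window runs from 250 bases before to 50 bases after the start of the gene, printed 5′ to 3′ on the strand of the gene. Capitals mark matches to motifs of factors that act in acute-phase and interferon responses, searched on both strands: the kappa-B decamer of NF-kB, the C/EBP motif TTNNGNAA, the GAS motif TTCNNNGAA of STAT factors and the ISRE core GAAANNGAA; the TATA motif TATAAA was searched on the strand of the gene alone.
CFB, plus strand, chr6:31945845-31946144: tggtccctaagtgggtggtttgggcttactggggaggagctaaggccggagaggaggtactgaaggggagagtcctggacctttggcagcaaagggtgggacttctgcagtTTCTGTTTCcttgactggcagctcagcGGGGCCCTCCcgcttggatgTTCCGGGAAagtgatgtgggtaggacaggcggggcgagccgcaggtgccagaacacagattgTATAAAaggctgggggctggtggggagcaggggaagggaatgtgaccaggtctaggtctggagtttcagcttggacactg
LCN2, plus strand, chr9:128149203-128149502: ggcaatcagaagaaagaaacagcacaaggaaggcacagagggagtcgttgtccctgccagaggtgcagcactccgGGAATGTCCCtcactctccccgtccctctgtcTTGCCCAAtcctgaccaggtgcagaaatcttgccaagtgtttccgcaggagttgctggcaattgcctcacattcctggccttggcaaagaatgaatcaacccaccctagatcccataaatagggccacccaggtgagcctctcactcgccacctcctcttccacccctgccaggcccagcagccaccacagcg
SAA4, minus strand, chr11:18236753-18237052: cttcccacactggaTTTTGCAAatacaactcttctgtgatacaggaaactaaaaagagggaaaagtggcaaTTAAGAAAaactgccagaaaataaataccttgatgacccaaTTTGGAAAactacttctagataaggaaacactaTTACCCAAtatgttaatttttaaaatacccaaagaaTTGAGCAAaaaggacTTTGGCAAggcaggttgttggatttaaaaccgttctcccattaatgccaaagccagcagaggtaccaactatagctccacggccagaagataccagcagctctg
The CFB window held 1 kappa-B decamer, 1 GAS place read on both strands, 1 ISRE core and 1 TATA motif from 30 to 25 bases before the start. The LCN2 window held 1 kappa-B decamer and 1 C/EBP match. The SAA4 window held 6 C/EBP matches and no kappa-B decamer. C1R has 2 windows, not printed, of which 1 held 2 C/EBP matches and the other 1 C/EBP match and 1 GAS place. None of the matches in the printed windows overlapped another motif. Among 35116 promoter windows of the same length, 11.3% held a kappa-B decamer, 36.8% a C/EBP match, 7.66% a GAS match, 8.11% an ISRE core and 7.33% a TATA motif. These shares are of windows with at least 1 match, and how many windows held 6 C/EBP matches was not counted. A match is a run of letters and does not show that a factor binds there.

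The other genes of the complement cascade were expressed in part. In the classical pathway list, 5 of 8 genes had a mean of at least 1 TPM and 0 passed 2-fold, beside 0.714% lower and 0.815% higher over all genes. C1QA, C1QB and C1QC, the recognition subunits that C1R and C1S act with, were listed at 0 in both libraries. C2, the classical protease next to CFB, was at 6.32 TPM with vehicle and 9.31 TPM with the analog, a difference of 0.49. C4A and C4B, near-identical copies whose values are uncertain, were at 2.06 and 2.61 TPM in DMSO and at 1.96 and 3.43 TPM in CCA-1.1. In the lectin pathway 2 of 9 genes reached 1 TPM, led by COLEC10, a collectin, at 6.76 TPM and 5.55 TPM. In the terminal pathway, whose proteins form the membrane attack complex, 1 of 7 genes reached 1 TPM (C8G).

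RNAs of membrane proteins that restrain complement were abundant and differed little. CD46, a cofactor for the cleavage of C3b and C4b, was at 404.3 TPM with vehicle and 397.7 TPM with the analog. CD55, which speeds the decay of C3 convertases, was at 307.6 TPM and 337.9 TPM, and CD59, which blocks the membrane attack complex, was at 123.4 TPM and 114.2 TPM. Of 12 soluble inhibitors, 3 reached a mean of 1 TPM. CLU (clusterin), a chaperone that also binds terminal complexes, was at 568.5 TPM and 615.7 TPM, and CFI, the protease that cleaves C3b, was at 61.4 TPM and 63.7 TPM. In the lists of membrane inhibitors, soluble inhibitors and complement receptors, 0 genes passed 2-fold in either direction. Over all genes, 0.714% were lower and 0.815% were higher by that much, so nothing is read from a count of 0 in lists this short. The highest gene of the receptor list, C1QBP, a mitochondrial protein that binds the globular heads of C1q, was at 165.8 TPM and 166.0 TPM.

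Of 22 acute-phase genes, 7 had a mean of at least 1 TPM, and of these 6 had a difference below 0 and 1 above 0. SAA1 and SAA2 were the 2 that passed 2-fold. Without SAA1, SAA2 and SAA4, which were chosen from these libraries, 4 genes remained, 3 with a difference below 0, and their median was -0.31. The list itself was written with earlier results of these libraries known, so nothing is read from these counts or this median. The median of the 15485 genes of all kinds averaging 1 TPM or more was 0.029, and 43.8% of them had a difference below 0. CRP, the acute-phase marker of the liver, was listed at 0 in both libraries, and PTX3, a related pentraxin made outside the liver, was at 21.98 TPM with vehicle and 16.8 TPM with the analog. Among receptors and carriers of SAA and LCN2, FPR1, a formyl peptide receptor and relative of the SAA receptor FPR2, was at 55.1 TPM with vehicle and 32.6 TPM with the analog, a difference of -0.74. FPR2 itself was below 1 TPM in both libraries. Of the 10 genes in this list of receptors and carriers, 5 had a mean of at least 1 TPM. Their median was 0.0032, and 2 had a difference below 0 and 3 above 0, up to 0.34.

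Genes listed as cytokine and transcription inputs of the acute-phase response were lower in most cases. The list was written with earlier results of these libraries known, and it also holds cytokine receptors and feedback inhibitors. Its counts and medians are therefore descriptions. Of 19 such genes, 18 had a mean of at least 1 TPM. Of these 18, 16 had a difference below 0, beside 43.8% of all genes at that level. The median of the 18 was -0.18. The 15 averaging 10 TPM or more also had a median of -0.18, beside 0.0039 for the 7906 protein-coding genes at that level. IL6, the main inducer of the response in liver, was at 11.1 TPM with vehicle and 4.92 TPM with the analog, a difference of -1.03. IL1B, which acts with it on serum amyloid A genes, was at 74.6 TPM and 44.2 TPM, a difference of -0.74. IL6 was the 1 gene of this list past 2-fold, and 0 genes were higher by that much. CEBPD, a C/EBP factor induced in acute inflammation, was at 75.6 TPM and 50.8 TPM, a difference of -0.56. CEBPB, its more abundant relative, was at 521.0 TPM and 401.2 TPM, a difference of -0.38. Over all lists, 43 genes other than the 9 had a mean of at least 1 TPM, and 4 of them (FPR1, IL6, IL1B and CEBPD) were lower by more than 0.5 while 0 were higher by as much. Among all 15485 genes at that level, 3.6% were lower and 5.51% were higher by more than 0.5. All the lists were written with earlier results known, so nothing is read from setting their counts beside these shares. The difference of C2, 0.49, lay just short of that size. Whether these levels bear on SAA1 and SAA2 was not tested.

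**Figure D5:**
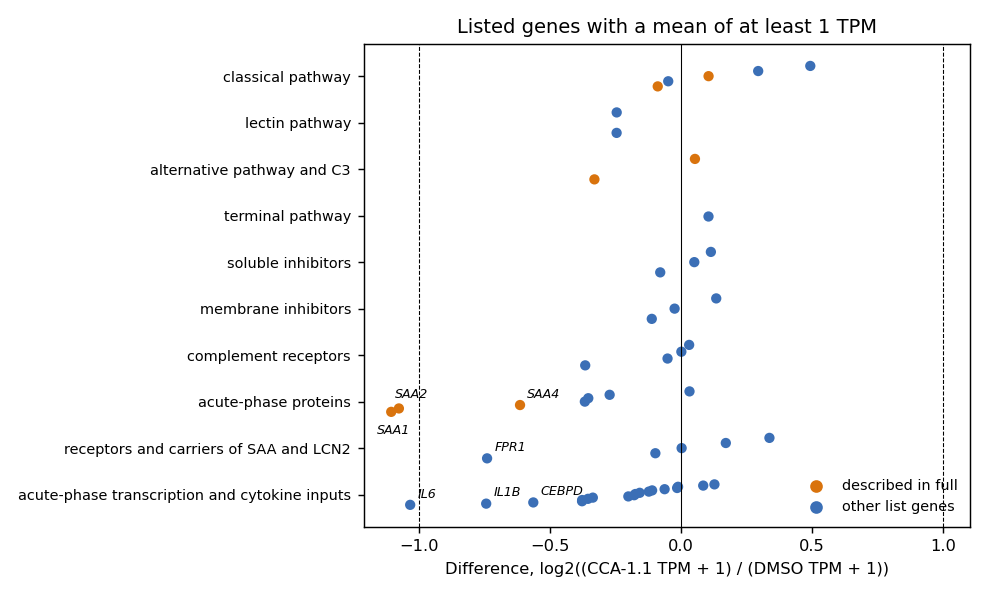
Log2 ratio of CCA-1.1 to vehicle after adding 1 TPM, for listed genes averaging 1 TPM or more, 1 row per list and 1 point per gene (dashed lines, 2-fold). The complement lists lie within 0.5 of 0, while SAA1 and SAA2 at about -1.1, IL6 at -1.03, IL1B and FPR1 at -0.74 and SAA4 at -0.61 stand to the left.

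Most markers of other cell types were listed at low values, with CD68 as the exception, and the limit on listed zeros given for ACTN4 holds here too. The hepatocyte list (ALB, APOA1, APOB, TTR, SERPINC1 and CYP3A4) summed to 0.41 TPM with vehicle and 0.35 TPM with the analog, with 0 of 6 genes reaching 1 TPM. Of 7 microglia and macrophage markers, 3 reached 1 TPM, while AIF1, TYROBP and P2RY12 were listed at 0 in both libraries and PTPRC was at 0.09 and 0.07 TPM. Most of that list's summed level, 497.4 TPM with vehicle and 400.3 TPM with the analog, was CD68, a lysosomal protein that other cells also express. CD68 alone was at 494.2 TPM and 397.1 TPM, and its part in the results was not tested. The 3 endothelial markers summed to 3.93 TPM and 3.23 TPM, led by PECAM1 at 3.41 TPM with vehicle and 2.71 TPM with the analog. In the glioblastoma and mesenchymal list, which summed to 8942 TPM with vehicle and 8081 TPM with the analog, the highest gene was CHI3L1, a secreted glycoprotein, at 4947 TPM and 4397 TPM. Of its 5 genes averaging 1 TPM or more, 4 had a difference below 0. TNC, a matrix glycoprotein, was at 162.7 TPM with vehicle and 96.7 TPM with the analog, a difference of -0.74, and CD44, a hyaluronan receptor, had a difference of -0.36. VIM, the mesenchymal filament, was at 3217 TPM and 3106 TPM. GFAP, the astrocyte filament, was below 1 TPM and S100B was listed at 0. Whether the lower values of this list bear on SAA1 and SAA2 was not tested.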

How the data were processed

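Libraries of U87 cells, 1 treated with DMSO and 1 with CCA-1.1 for 72 h, were analysed. The authors enriched mRNA, checked reads with FastQC 0.11.9 and MultiQC 1.1, and estimated transcript levels by pseudo-alignment with Kallisto against GRCh38.p14. The deposited table holds TPM per RefSeq transcript, a unit taken from the use of Kallisto and from columns that sum to 999999 and 1e+06. Bias correction and Kallisto's word length are not given in the sources used here.

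Transcripts were assigned to genes with the RefSeq gene table of GRCh38.p14, ignoring accession versions (169966 of 177816 matched), and TPM was summed per gene. A pseudocount of 1 TPM was used and differences past 2-fold were called. TPM holds no read depth and each condition has 1 library, so no count test or other test was run. The authors tested transcripts with edgeR. The code was checked on simulated data with planted changes and an assumed noise, which says nothing about the spread between cultures.

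The genes and lists were chosen with earlier results of these data known. All 9 genes were named, with list genes of a mean of at least 1 TPM and a difference past 0.5, and the highest gene of each list. VIM, CD44, ACTN4, C2, CD55, CD59, CFI, PTX3, CRP, FPR2, the C1Q genes and the neighbours within 100 kb were added after their values were seen. Shared words and coding identity came from GENCODE v44 transcripts lifted to GRCh37, a different build, so no coordinates of it are given. Each gene compared was represented by its MANE Select transcript, and words shared by C1R and CFB are not reported, since their GENCODE models may differ from the RefSeq transcripts quantified. Alternatives were pseudocounts of 0.1 and 0.01 TPM, median-ratio scaling, curated transcripts, summed copies, the readthrough gene and minimum means of 1 and 10 TPM. Python 3.11.15 with numpy 2.4.6 and pandas 2.3.3 was used.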

Additional observations from a re-analysis of the deposited data

How the results depend on the processing

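No paired analysis was possible because each condition had 1 library, and none could be left out. A value was taken to have moved when it changed by more than 0.297. That is 0.5 of the spread from 5th to 95th percentile of the difference over 7906 protein-coding genes. It was used because no replicate spread exists, but it is a spread across genes and does not measure the spread between cultures. Counts and percentages were taken to have moved past 1.5 times. SAA1, SAA2, SAA4, C3, C1R, C1S and CFB kept their direction and their side of 2-fold under every alternative run, and did not move. All listed transcripts of these genes were curated, so that alternative could not change them, and median-ratio scaling used a factor of 0.997. No alternative shows how these genes vary between cultures. LCN2 and SERPING1, whose levels were near 0, moved. With pseudocounts of 0.1 and 0.01 TPM, LCN2 was at -0.92 and -1.12 and SERPING1, listed at 0 with CCA-1.1, at -0.85 and -3.17, values set by the pseudocount, and with curated transcripts alone LCN2 was at -0.68. With 0.01 TPM, 4 of the 9 genes (these and the inducible serum amyloid genes) were lower by more than 2-fold, as were 11 list genes, and 9 list genes were higher; with 0.1 TPM, 2 list genes were higher. Of all genes, 3.07% were lower and 4.12% higher with 0.1 TPM, 7.12% and 9.31% with 0.01 TPM, 1.67% and 1.89% with a minimum mean of 1 TPM, and 0.152% and 0.0632% among protein-coding genes averaging 10 TPM or more. The median of the acute-phase list was -0.028 over all its genes. It was -0.37 with a minimum mean of 1 TPM and -0.37 with 10 TPM, since fewer genes enter it. Those medians include serum amyloid A genes chosen from these libraries. Without the chosen genes, 4 were left averaging 1 TPM or more, and their median was -0.31. These 4 are not free of that choice, since the list was also written with earlier results known.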
